A study of Mus musculus with 20 samples.

Results

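The regions described here are the 2003 RAD21 peaks of WT mouse embryonic stem cells that overlapped, by 1 bp or more, neither a RAD21 peak of ΔCTCF cells nor a CTCF peak of WT cells. They were 9.83% of the 20371 peaks of the RAD21 WT list, and are called lost RAD21 peaks without a CTCF peak. They were chosen by the RAD21 WT, RAD21 ΔCTCF and CTCF WT lists, so values of these 3 lists are given as a description. The same cut put the other peaks of the RAD21 WT list into 3 further classes, namely 10449 lost peaks with a CTCF peak, 7063 kept peaks with a CTCF peak and 856 kept peaks without one.

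ChIP-seq measured CTCF, MAZ and RAD21 in E14 mouse embryonic stem cells grown with LIF and 2i. All cells carried CTCF fused to an auxin-inducible degron, so the group called WT is that degron line without auxin. ΔCTCF cells had auxin for 2 days per the sample titles, ΔMAZ cells were Maz knockout clone B2 of the same degron line without auxin, and ΔCTCF/ΔMAZ cells were that clone with 2 days of auxin. Each of the 3 antibodies gave 1 peak list in each of the 4 conditions, so no group had a replicate list and no p-value was computed. Shares are followed by Wilson 95% intervals in parentheses, which cover counting error over peaks of these libraries only. Knockout cells came from 1 clone, and a difference between the clone and its parent cannot be told apart from the loss of MAZ. The lists hold no expression values, so the cell type was not checked against markers.

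Cohesin is a protein ring that extrudes chromatin loops and holds sister chromatids together, and RAD21 closes this ring. Extruding cohesin stops at barriers, the best known of which is CTCF, a zinc finger protein that binds a long, oriented DNA sequence. MAZ is a zinc finger protein that binds G-rich sequences, mostly near promoters. RAD21 peaks at CTCF sites are the common pattern in mammalian cells, and RAD21 also gathers at active promoters and enhancers, where the loader NIPBL acts.

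The DNA under the strongest members is shown first, because CTCF sequence turned out to separate the members from the kept peaks without CTCF. Each window holds the 101 bases around the RAD21 WT summit, on the plus strand of build mm10. Capitals mark a site of the CTCF weight matrix, a 20-base model whose most favoured letters were GTGGCCACCAGGGGGCGCTA. The first set holds members called in RAD21 ΔMAZ that overlapped no peak of any of the 4 CTCF lists. A matrix site lay in 2 of the 5 members that this rule chose, and both are among the windows printed.
region 89375 bp from Shcbp1, chr8:4868879-4868979: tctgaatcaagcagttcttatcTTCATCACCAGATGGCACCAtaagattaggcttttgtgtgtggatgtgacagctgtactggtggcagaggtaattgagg
region 51610 bp from Lrfn2, chr17:48880719-48880819: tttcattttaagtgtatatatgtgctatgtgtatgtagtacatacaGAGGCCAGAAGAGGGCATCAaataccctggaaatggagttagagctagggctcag
region 45554 bp from 1700001O22Rik, chr2:30756103-30756203: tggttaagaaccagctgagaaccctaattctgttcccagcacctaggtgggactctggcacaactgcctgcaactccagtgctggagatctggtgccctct

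The second set holds the strongest members that overlapped a CTCF peak of ΔMAZ cells, and it shows which of them had a matrix site. A site was found under 4 of the 5.
region 443974 bp from Nkain3, chr4:21222790-21222890: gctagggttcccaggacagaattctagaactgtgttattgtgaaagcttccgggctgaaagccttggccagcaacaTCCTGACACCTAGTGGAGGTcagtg
region 6376 bp from Fsip1, chr2:118263292-118263392: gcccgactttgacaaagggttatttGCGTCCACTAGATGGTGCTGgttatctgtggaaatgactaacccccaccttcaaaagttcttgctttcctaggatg
region 12260 bp from St8sia6, chr2:13806274-13806374: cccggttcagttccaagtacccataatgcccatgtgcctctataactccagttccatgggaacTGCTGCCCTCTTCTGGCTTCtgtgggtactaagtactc
region 1937 bp from Mad2l1, chr6:66533403-66533503: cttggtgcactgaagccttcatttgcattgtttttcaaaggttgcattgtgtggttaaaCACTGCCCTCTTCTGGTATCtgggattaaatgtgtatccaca
region 8582 bp from Clec3b, chr9:123159478-123159578: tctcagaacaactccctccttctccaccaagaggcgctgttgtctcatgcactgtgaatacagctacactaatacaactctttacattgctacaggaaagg

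The third set holds the strongest members that overlapped a MAZ peak of WT or ΔCTCF cells, and windows on an annotated UTR are not printed. A matrix site lay in 3 of the 5 members that this rule chose, of which 1 is printed. These 3 were the only ones with a matrix site among all 68 members with a MAZ peak.
region 57356 bp from Etaa1, chr11:18011181-18011281: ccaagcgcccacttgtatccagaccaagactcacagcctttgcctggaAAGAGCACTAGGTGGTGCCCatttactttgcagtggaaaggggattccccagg
Cic intron, chr7:25278274-25278374: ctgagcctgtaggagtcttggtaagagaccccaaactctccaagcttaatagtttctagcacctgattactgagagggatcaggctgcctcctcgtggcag
region 157 bp from Slc2a1, chr4:119108504-119108604: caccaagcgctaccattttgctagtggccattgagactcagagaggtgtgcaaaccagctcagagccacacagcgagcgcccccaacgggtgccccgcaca

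The members were weak RAD21 peaks. Their median fold enrichment, the ratio of the read pileup at the summit to the local background after 1 is added to each, was 6.09, and the middle 90% of members lay between 4.15 and 11.7. The median was 8.69 in lost peaks with CTCF, 17.7 in kept peaks with CTCF and 5.22 in kept peaks without CTCF. In reads, the median pileup at a member was 14 fragments, against 21, 45 and 12 in those classes. Members were also narrow, with a median width of 225 bp against 282, 356 and 247 bp, and at least 5% of them had the list's smallest width of 187 bp. When all RAD21 WT peaks were ranked into 5 equal groups by fold enrichment, 1070 members (53.4%) fell in the weakest group and 571 (28.5%) in the next. The 3 stronger groups held 277, 76 and 9 members. Strength varied among the members all the same, from 1.63 to 31.3.

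**Figure D1:**
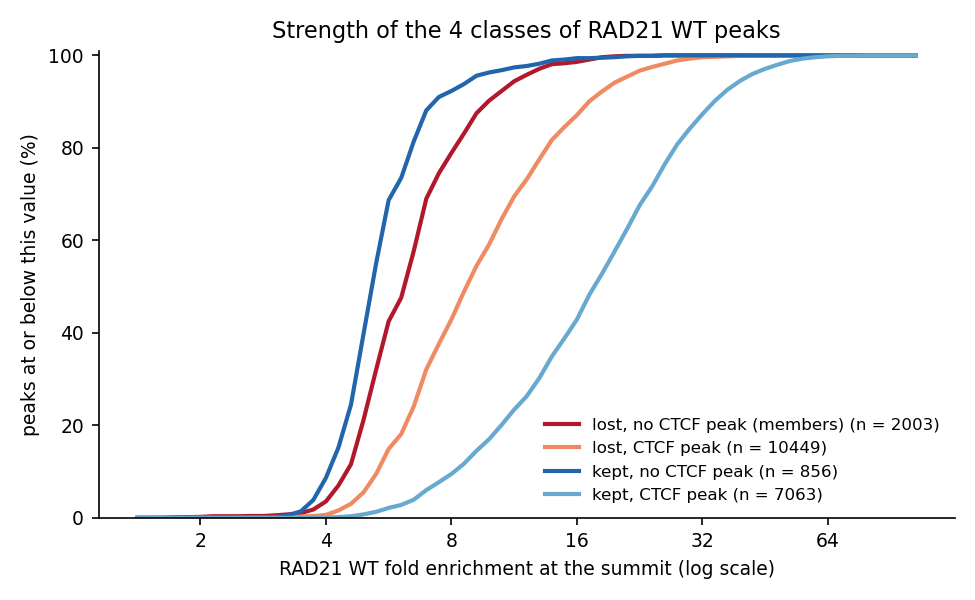
Cumulative share of peaks (y axis, %) by RAD21 WT fold enrichment at the summit (x axis, log scale), 1 line for each of the 4 classes. The members (median 6.09) lie between kept peaks without CTCF (5.22) and lost peaks with CTCF (8.69), and kept peaks with CTCF (17.7) lie far to the right.

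The RAD21 libraries differed in depth and in contrast. By the lowest local background over the smallest peak width, an index of depth, RAD21 ΔCTCF was 2.18 times as deep as RAD21 WT, RAD21 ΔMAZ 1.29 times and RAD21 ΔCTCF/ΔMAZ 0.931 times. CTCF ΔMAZ was 0.902 times as deep as CTCF WT. RAD21 ΔCTCF also had a higher median background than RAD21 WT (3.38 against 1.37 fragments), a lower median fold enrichment (4.85 against 10.0) and a higher lowest pileup among called peaks (12 against 7 fragments). The part of these differences in the missing calls was not tested. A peak that is not called can still hold signal below the caller's limit, and the lists do not show it.

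The members closest to the limits of the rule were mostly small peaks. The smallest gap to a CTCF WT peak was 0 bp, at chr2:76970772-76971090 in an intron of Ttn, whose edge touched a CTCF peak and whose fold enrichment was 10.4. The next members were 4 bp and 6 bp away, at the start of Kif26a (4.35) and in an intron of Ptprd (4.78). Just outside, the lost peaks with the smallest overlap shared 19, 39 and 46 bp with a CTCF WT peak and had fold enrichments of 11.3, 4.05 and 4.85. For RAD21 ΔCTCF, the members with the smallest gap lay 2, 6 and 9 bp from a peak, with fold enrichments of 4.42, 3.68 and 4.78. Kept peaks without CTCF with the smallest overlap shared 28, 29 and 33 bp, with fold enrichments of 5.06, 3.37 and 9.28. Few members were near either limit. A CTCF WT peak lay within 100 bp of 10 members (0.499%) and within 500 bp of 45 (2.25%), and a RAD21 ΔCTCF peak lay within 100 bp of 21 (1.05%) and within 500 bp of 76 (3.79%).

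Most members lay more than 10000 bp from any CTCF WT peak, and no gap expected for random positions was computed. The median gap between edges was 27102 bp, with 5% of members within 1051 bp and 5% beyond 311660 bp. A CTCF WT peak lay within 10000 bp of 567 members (28.3%) and within 100000 bp of 1611 (80.4%). In kept peaks without CTCF the median gap was 32484 bp, and 245 (28.6%) had a CTCF peak within 10000 bp. The median gap from a member to the nearest RAD21 ΔCTCF peak was 38444 bp, and in lost peaks with CTCF it was 30444 bp. Another member lay within 20 kb of 121 members (6.04%).

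**Figure D2:**
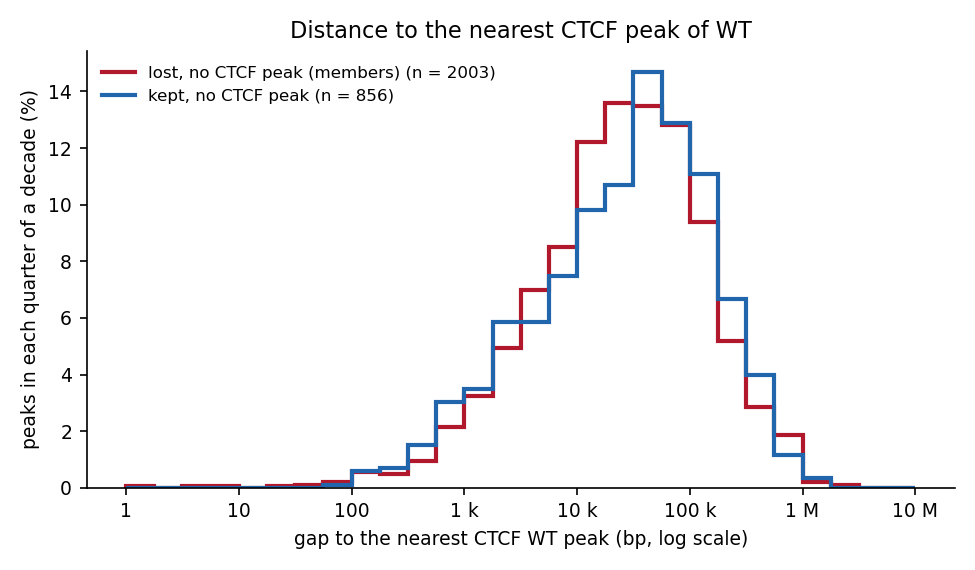
Gap in bp from each peak to the nearest CTCF WT peak (x axis, log scale, gaps under 1 bp drawn at 1) for members and for kept peaks without CTCF, as the percent of peaks in each bin (y axis). Both distributions peak between 10 kb and 100 kb, with medians of 27102 and 32484 bp.

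Although no CTCF peak of WT defined them, many members had a CTCF binding sequence at the summit. The weight matrix, trained on CTCF WT summits and set so that 1% of non-repeat windows beside those summits pass, found a site within 50 bp of the summit in 1055 of 2003 members, 52.7% (50.5 to 54.9). The background over all RAD21 WT peaks was 72.2%. The share was 73.7% in lost peaks with CTCF and 83.7% in kept peaks with CTCF, but 4.79% (3.55 to 6.43) in kept peaks without CTCF. Members exceeded kept peaks without CTCF by 47.9 percentage points (45.1 to 50.4), and the difference from lost peaks with CTCF was -21.0 points (-23.3 to -18.7). In windows of the same length 1 kb to each side of the members' summits, 1.20% held a site. At CTCF WT summits, which trained the matrix, the share was 80.1%. Both classes with a CTCF peak overlap peaks of that list, and members do not. The matrix comparison with these classes is thus not independent of the rule. The median distance from site centre to RAD21 summit was 19 bp in members, and also 19 bp in lost peaks with CTCF.

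A stricter search gave a lower level with the same order. The CTCF core string, CCNNNAGGGGGC, CCNNNAGGTGGC, CCNNNAGAGGGC or CCNNNAGATGGC on either strand, was within 50 bp of the summit in 510 members, 25.5% (23.6 to 27.4). The background over all RAD21 WT peaks was 45.2%, and the share in windows beside the members was 0.874%. It was 45.6% in lost peaks with CTCF, 55.2% in kept peaks with CTCF and 2.45% in kept peaks without CTCF. Both searches thus put the members well above kept peaks without CTCF and below both classes with a CTCF peak. A matrix trained on all windows, repeats included, found a site in 30% of members, 50.6% of lost peaks with CTCF and 2.10% of kept peaks without CTCF.

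Repeat sequence held part of these sites. In 357 members (17.8%) at least 50% of the summit window was soft-masked as repeat, against 15.8% of all RAD21 WT peaks and 19.5% of lost peaks with CTCF, and 248 of these (69.5%, 64.5 to 74.0) had a matrix site. Among the other 1646 members 807 (49.0%, 46.6 to 51.4) had one. The share was also higher in repeat windows of lost peaks with CTCF (79.9% against 72.2%) and of kept peaks with CTCF (90.1% against 83.0%), but not of kept peaks without CTCF (2 of 141, 1.42%, against 39 of 715, 5.45%). The median GC content of the members' windows was 50.5%, against 52.5% in kept peaks without CTCF.

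**Figure D3:**
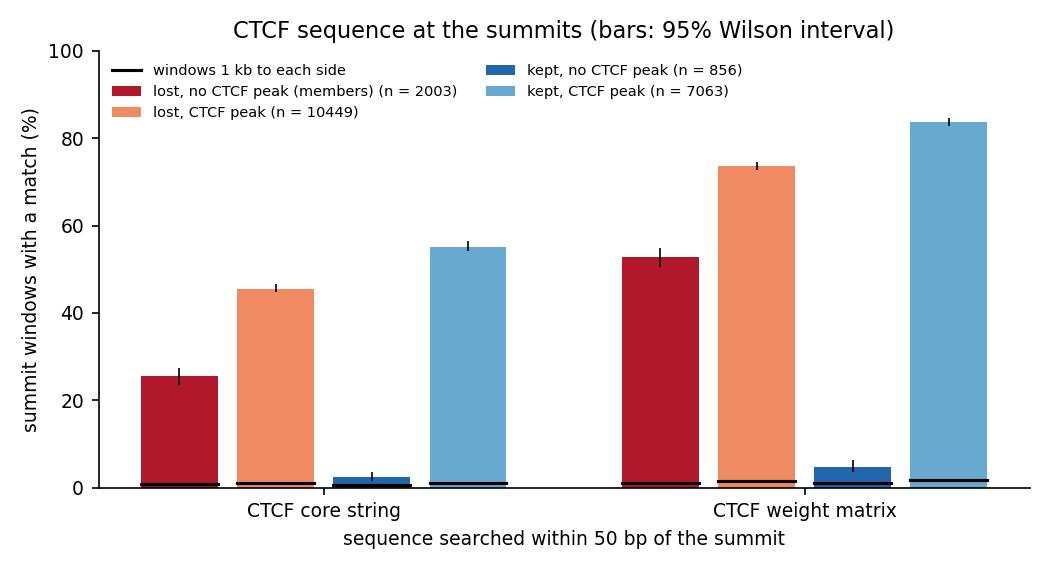
Percent of summit windows (y axis) that hold the CTCF core string or a CTCF matrix site within 50 bp of the summit, for the 4 classes. Error bars are Wilson 95% intervals and black lines give the same share in windows 1 kb to each side. Members (25.5% and 52.7%) stand above kept peaks without CTCF (2.45% and 4.79%).

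Other sequences were rare at members. The MAZ string GGGAGGG was found in 57 members (2.85%, 2.20 to 3.67), against 4.04% of windows beside them, 2.76% of all RAD21 WT summits and 7.13% of kept peaks without CTCF. A KLF box, GGGNGTGG, was found in 43 members (2.15%), against 2.90% beside and 2.34% of all summits. The octamer of POU factors such as OCT4, ATTTGCAT, was found in 8 members (0.399%) against 0.344% of all summits, and the sequence of the orphan nuclear receptor ESRRB, TCAAGGTCA, in 6 (0.300%) against 0.137%. In kept peaks without CTCF the last 3 were found in 6.07%, 1.4% and 1.05%. All were searched on both strands.

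The Maz knockout cells, in which the degron was not induced, gave CTCF and RAD21 lists that the rule did not use. In CTCF ΔMAZ a peak overlapped 609 members, 30.4% (28.4 to 32.5), against a background of 84.5% of all RAD21 WT peaks. The share was 91.3% in lost peaks with CTCF, and members differed from these by -60.9 points (-62.9 to -58.7). It was 3.74% (2.66 to 5.23) in kept peaks without CTCF, and members were 26.7 points (24.2 to 29.0) above these. The CTCF peaks at members were small. Their median fold enrichment was 6.46 and their median pileup 9 fragments, against 12.3 and 18 over the whole CTCF ΔMAZ list, and 328 of the 609 (53.9%) were in the weakest 20% of that list. The rule leaves members without a CTCF WT peak, and all 3463 CTCF ΔMAZ peaks that overlapped no CTCF WT peak had a median fold enrichment of 5.54, below that at members. The CTCF ΔMAZ peaks at members lay close to the RAD21 summits, with a median of 35 bp between summits, against 32 bp in lost peaks with CTCF. The 609 were 17.6% of those 3463 peaks. Conversely, 3817 CTCF WT peaks overlapped no CTCF ΔMAZ peak, so lists of single libraries differed in both directions.

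A CTCF ΔMAZ peak and a matrix site went together among the weakest members. A matrix site was present in 392 of the 609 members with a CTCF ΔMAZ peak (64.4%, 60.5 to 68.1) and in 663 of the 1394 without (47.6%, 44.9 to 50.2). In the weakest strength group these shares were 62.0% (55.4 to 68.2) and 36.4% (33.3 to 39.7), while in the next group they were 65.4% (58.7 to 71.5) and 63.1% (58.0 to 67.9). In groups 3 and 4 of 5 the order turned, at 62.2% against 68.3% and 73.9% against 80.0%, with intervals that overlap. In all, 1272 members (63.5%, 61.4 to 65.6) had a matrix site or a CTCF ΔMAZ peak. This was below the background, since 84.5% of all RAD21 WT peaks had a CTCF ΔMAZ peak and 72.2% a matrix site. Few members overlapped a peak of the auxin-treated CTCF lists. CTCF ΔCTCF overlapped 5 (0.250%, background 10.7%) and CTCF ΔCTCF/ΔMAZ overlapped 4 (0.200%, background 11.8%). In both lists the share was 1.10% in lost peaks with CTCF and 0.117% in kept peaks without CTCF.

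RAD21 was called again at fewer members than at other WT peaks. In RAD21 ΔMAZ a peak overlapped 831 members, 41.5% (39.3 to 43.7), against a background of 83.5%. The share was 83.4% in lost peaks with CTCF, 99.3% in kept peaks with CTCF and 50.9% (47.6 to 54.3) in kept peaks without CTCF. Members differed from lost peaks with CTCF by -42.0 points (-44.2 to -39.7) and from kept peaks without CTCF by -9.45 points (-13.4 to -5.46). The share went up with strength. From the weakest group upward, 24.2%, 48.3%, 77.6% and 94.7% of members were called, and all 9 in the strongest group. Lost peaks with CTCF gave 58.0%, 77.8%, 92.6%, 99.4% and 100%, so the gap narrowed from group to group. Kept peaks without CTCF gave 43.1%, 70.1% and 90.9% in the 3 weakest groups, so members were farther below them within the 2 weakest groups than over all strengths. The 1172 members not called in RAD21 ΔMAZ had a median fold enrichment of 5.65 and a median pileup of 13 fragments.

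Where RAD21 was called in both libraries the levels were close. The 831 members had a median fold enrichment of 7.24 in RAD21 WT and 6.56 in RAD21 ΔMAZ, and the median log2 ratio of ΔMAZ over WT was -0.10, with a middle range of -0.41 to 0.19. It was -0.05 in lost peaks with CTCF. RAD21 WT values chose the members, and fold enrichments of separate libraries are not on a common scale. Summits of both libraries lay within 50 bp of each other at 83.9% of these members.

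The CTCF and RAD21 lists of the knockout cells were linked at members. Of members with a CTCF ΔMAZ peak 385 of 609 (63.2%, 59.3 to 67) were called in RAD21 ΔMAZ, and of the rest 446 of 1394 (32%, 29.6 to 34.5). This held within the weakest group, at 46.8% (40.2 to 53.4) and 18.5% (16 to 21.2), and within the next, at 59.6% (52.8 to 66.1) and 41.9% (36.9 to 47.0). In the middle group the shares were 81.5% (74.1 to 87.1) and 73.9% (66.2 to 80.5), with intervals that overlap. A total of 908 members (45.3%) were in neither knockout list nor in a MAZ list of WT or ΔCTCF, and 894 (44.6%) were in none of the 9 lists that the rule did not use. Over all RAD21 WT peaks these shares were 8.04% and 7.66%, and in kept peaks without CTCF they were 37.1% (34.0 to 40.4) and 30% (27.0 to 33.2).

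**Figure D4:**
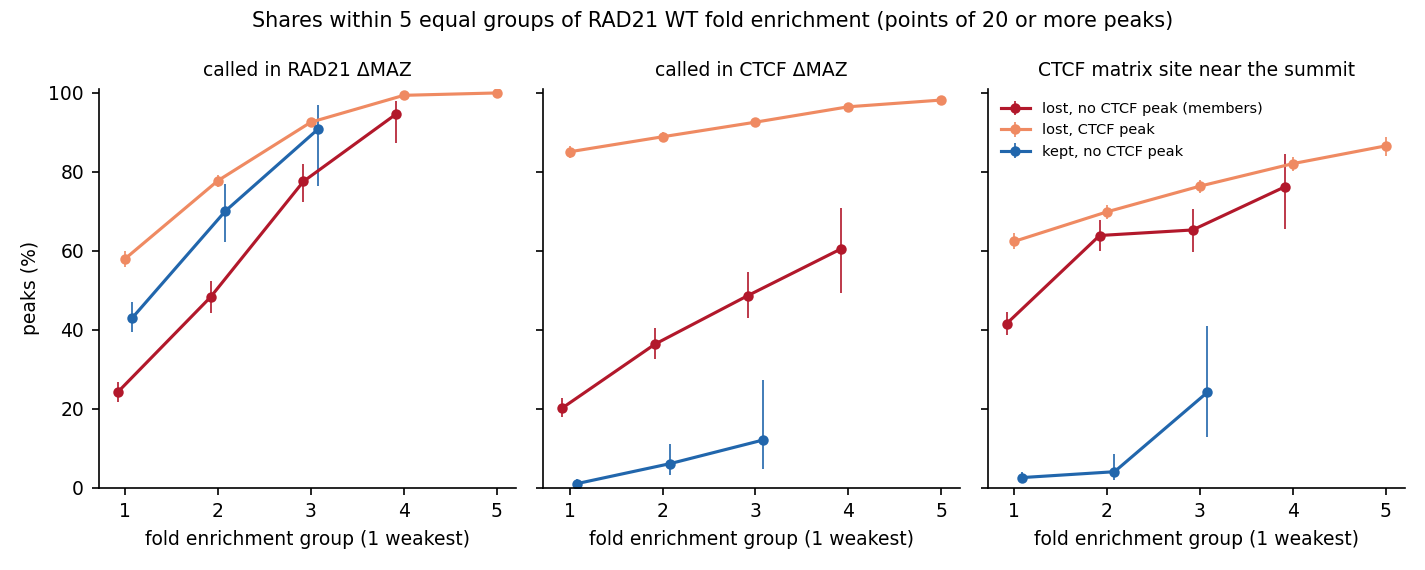
Percent of peaks (y axis) called in RAD21 ΔMAZ, called in CTCF ΔMAZ, or with a CTCF matrix site, within 5 equal groups of RAD21 WT fold enrichment (x axis, 1 weakest), for members, lost peaks with CTCF and kept peaks without CTCF. Points with Wilson 95% intervals are drawn for 20 or more peaks. For members, the RAD21 ΔMAZ share went from 24.2% to 94.7% over the 4 groups drawn and the CTCF ΔMAZ share from 20.2% to 60.5%.

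The double depletion gave a further RAD21 library of auxin-treated cells, which the rule did not use. In RAD21 ΔCTCF/ΔMAZ a peak overlapped 34 members, 1.70% (1.22 to 2.36), against a background of 21.7%. Lost peaks with CTCF were close to this, at 1.95% (1.70 to 2.24), and the difference was -0.255 points (-0.813 to 0.455). With a reciprocal overlap of 50% for membership, which gave 2791 members, the share was 7.24%. In kept peaks without CTCF the share was 33.9% (30.8 to 37.1), and members differed by -32.2 points (-35.5 to -29.0). Kept peaks were chosen by a call in RAD21 ΔCTCF, also a library after auxin, and members by the lack of one. The rule thus favours the direction of this difference, and the interval does not cover that. In the weakest strength group, members gave 2.34% (1.59 to 3.43) and kept peaks without CTCF 30.5% (27.1 to 34.1). Members with a matrix site were called there in 3 of 1055 cases (0.284%, 0.0968 to 0.833), and members without one in 31 of 948 (3.27%, 2.31 to 4.60).

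MAZ was called at few members. MAZ WT overlapped 50 members, 2.5% (1.9 to 3.28), against a background of 2.59%, and MAZ ΔCTCF overlapped 51, 2.55% (1.94 to 3.33), against 2.19%. Either list overlapped 68 members, 3.39% (2.69 to 4.28), against 3.27% of all RAD21 WT peaks, so the members' share was near the background. This depends on how members are chosen and calls made, since the share was 6.99% with a reciprocal overlap of 50% for membership, 1.95% for members with −log10 q of 5 or more, and 1.75% when calls needed a reciprocal overlap. It was 0.976% (0.805 to 1.18) in lost peaks with CTCF and 26.2% (23.3 to 29.2) in kept peaks without CTCF. Members were thus 2.42 points (1.68 to 3.32) above the former and differed by -22.8 points (-25.9 to -19.8) from the latter. The knockout MAZ lists, which show what the antibody gives without MAZ, overlapped 5 members in ΔMAZ (0.250%, background 0.0884%) and 3 in ΔCTCF/ΔMAZ (0.150%, background 0.0884%). Either knockout list overlapped 5 members, against 0.103% of all RAD21 WT peaks. MAZ peaks at members lay farther from the RAD21 summit than CTCF peaks did, with a median of 128 bp in MAZ WT and 97 bp in MAZ ΔCTCF. The other classes were alike in this, with MAZ medians of 85 to 127 bp against 31 to 46 bp for CTCF ΔMAZ. Of members with a matrix site 3 of 1055 (0.284%) were in a MAZ list, and of those without 65 of 948 (6.86%, 5.42 to 8.65).

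**Figure D5:**
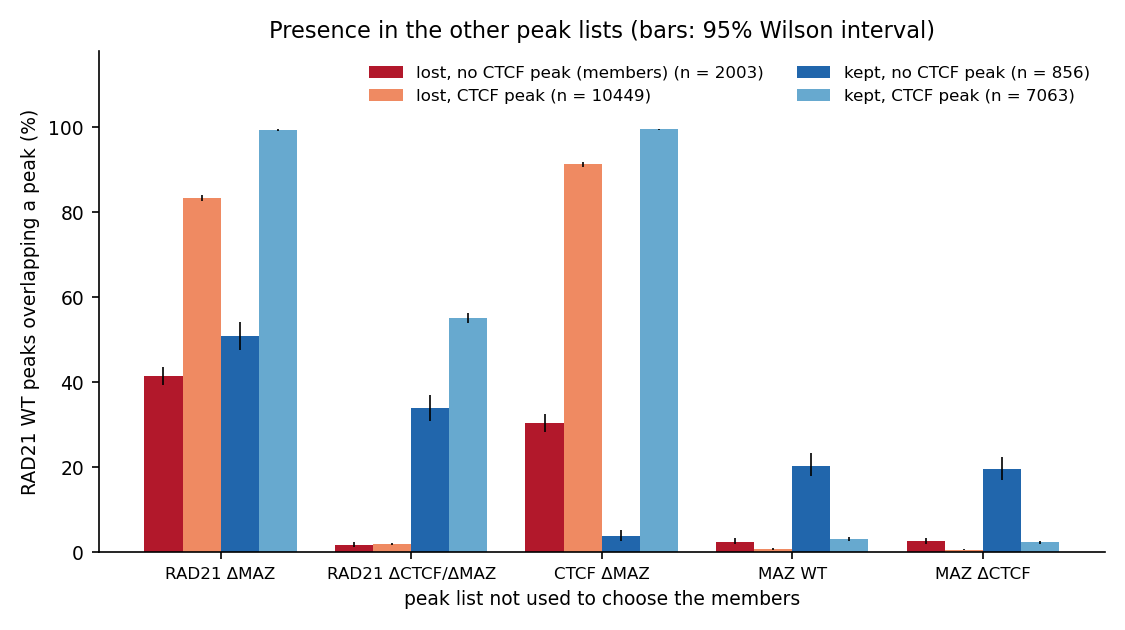
Percent of RAD21 WT peaks (y axis) that overlapped a peak of 5 lists not used to choose the members (x axis), for the 4 classes, with Wilson 95% intervals. Members were called in 41.5% (RAD21 ΔMAZ), 1.70% (RAD21 ΔCTCF/ΔMAZ), 30.4% (CTCF ΔMAZ), 2.5% (MAZ WT) and 2.55% (MAZ ΔCTCF).

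By gene position, 250 members (12.5%, 11.1 to 14.0) had their summit within 1 kb of an annotated transcription start, against 11.1% of all RAD21 WT peaks. Of the rest, 77 (3.84%) lay in exons, 765 (38.2%) in introns and 911 (45.5%) between genes. These shares were near those of all RAD21 WT peaks, at 4.37%, 40.5% and 44.0%. Promoters took 8.24% of lost peaks with CTCF and 27.5% (24.6 to 30.5) of kept peaks without CTCF. The members at promoters differed from the other members. They had a MAZ peak of WT or ΔCTCF in 48 of 250 cases (19.2%, 14.8 to 24.5) against 20 of 1753 (1.14%, 0.740 to 1.76), and a matrix site in 29.6% (24.3 to 35.5) against 56.0% (53.6 to 58.3). The MAZ contrast was not particular to members, as MAZ was called at 8.48% of promoter peaks and 0.302% of other peaks among lost peaks with CTCF, and at 49.4% and 17.4% among kept peaks without CTCF. CTCF ΔMAZ was called at 20.4% (15.9 to 25.8) of them and at 31.8% (29.7 to 34.0) of the others, whereas RAD21 ΔMAZ was called at 38.8% (33.0 to 45.0) and 41.9% (39.6 to 44.2). Their median fold enrichment was 5.22 against 6.09 elsewhere, and their windows were richer in GC, with a median of 60.4% against 49.5%. Most were at protein-coding genes, 185 of 250.

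In all, 729 members (36.4%, 34.3 to 38.5), some of them at promoters, had neither a matrix site nor a peak in any CTCF list. The share was 93.2% (91.3 to 94.7) in kept peaks without CTCF and 7.50% over all RAD21 WT peaks, most of which have a CTCF WT peak by definition of their class. Of these, 188 (25.8%, 22.7 to 29.1) were called in RAD21 ΔMAZ and 154 (21.1%, 18.3 to 24.2) lay at promoters.

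Of the members called in RAD21 ΔMAZ with no peak in any CTCF list, the strongest was an intergenic peak on chromosome 18 with a RAD21 fold enrichment of 24.3 in WT and 18.1 in ΔMAZ, 3965 bp from a CTCF WT peak. The next, at chr8:4868800-4869095, had 23.0 in WT and 12.7 in ΔMAZ and lay 89375 bp from Shcbp1. The peak at chr17:48880609-48880936 had 19.0 and 8.66, and the one at chr2:30756006-30756359 had 18.7 and 14.0.

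The strongest member of all was called in CTCF ΔMAZ. It lay between genes at chr4:21222660-21223012, 145293 bp from the nearest CTCF WT peak, with a RAD21 fold enrichment of 31.3 in WT and 22.0 in ΔMAZ and a CTCF fold enrichment of 6.92 in ΔMAZ. The others of this kind were near Fsip1 (RAD21 20.4 and 14.3, CTCF 8.31), near St8sia6 (20 and 10.4, CTCF 6.92), near Mad2l1 (19.6 and 7.57, CTCF 5.54) and near Clec3b (18.3 and 17.4, CTCF 15.9). Mad2l1 encodes a subunit of the spindle checkpoint, and its start site was 1937 bp from the peak at chr6:66533288-66533619. In 4 of the 5 the CTCF ΔMAZ value was under 9, and the peak near Clec3b, at chr9:123159352-123159700, was the exception. It was also the 1 without a matrix site.

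The 5 strongest members with a MAZ peak had RAD21 WT fold enrichments of 13.5, 11.4, 10.4, 9.13 and 9.06. Those at promoters were Zfp319, a zinc finger gene (chr8:95331716-95332041, MAZ WT 3.89), Atp5d, a subunit gene of mitochondrial ATP synthase (chr10:80141286-80141643, MAZ WT 4.09 and MAZ ΔCTCF 7.74) and Slc2a1, the glucose transporter GLUT1 (chr4:119108437-119108702, MAZ WT 4.64). The others lay between genes at chr11:18011097-18011375 (MAZ ΔCTCF 6.19) and in an intron of Cic, a transcriptional repressor (chr7:25278157-25278475, MAZ WT 4.30). All 5 were called in RAD21 ΔMAZ, at 6.49, 12.4, 7.33, 6.18 and 4.73 in the order of Zfp319, chromosome 11, Atp5d, Cic and Slc2a1. CTCF ΔMAZ was called at 4 of them, with 5.54 at Zfp319, 6.23 at Atp5d, 5.54 at Cic and 8.40 at Slc2a1. These 5 were picked for strength, and over all 68 members with a MAZ peak RAD21 ΔMAZ was called at 27 (39.7%, 28.9 to 51.6) and CTCF ΔMAZ at 11 (16.2%, 9.28 to 26.7).

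Near genes of the pluripotency network, 10 of 34 listed genes (29.4%, 16.8 to 46.2) had a member within 50 kb of a start site, against 10.9% of all 21924 protein-coding genes. Of 28 lineage genes 3 (10.7%, 3.71 to 27.2) had one, namely Gata6, Eomes and Gata1. Within 20 kb the pluripotency count was 5 (14.7%, 6.45 to 30.1), against 5.18% of all protein-coding genes. The count within 50 kb was 7 for members with −log10 q of 5 or more. It was 14 with a reciprocal overlap of 50% for membership. Dppa2 and Dppa4 were counted through the same member, which the intervals do not cover. No share near other RAD21 WT peaks was computed for these genes, so whether the excess is particular to members was not tested. The closest members were at the start of Myc, 232 bp away at chr15:61986997-61987265 (fold enrichment 7.05), and of Klf5, 309 bp away at chr14:99298325-99298511 (4.91). Both genes encode transcription factors of self-renewal, and neither peak was called in any other list. Prdm14, a regulator of naive pluripotency, had a member at 7261 bp with 6.52 in RAD21 WT and 6.56 in RAD21 ΔMAZ. Mycn had one at 11727 bp (4.27, CTCF ΔMAZ 5.62).

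The same member was nearest to Dppa2 and to Dppa4, chromatin regulators of stem cells, at 18132 and 44822 bp, with 9.56 in WT and 9.27 in RAD21 ΔMAZ. The member nearest to Utf1, 37874 bp away in an intron of Kndc1, was the strongest of the list with 13.7 in WT, 9.07 in RAD21 ΔMAZ and 8.90 in CTCF ΔMAZ, and had a matrix site. The remaining members were 44308 bp from Pou5f1, the gene of OCT4 (5.22), 37083 bp from Sall4 (4.78 in WT, 6.85 in RAD21 ΔMAZ, 4.85 in CTCF ΔMAZ) and 33293 bp from Dppa3 (3.35). Matrix sites were at the members near Pou5f1, Sall4, Dppa3, Utf1 and Mycn. Peaks mark places of RAD21 and no target gene was assigned.

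Members were unevenly spread over chromosomes. They were 7.46% to 13.0% of the RAD21 WT peaks of each autosome, and 76 of 391 on the X chromosome (19.4%, 15.8 to 23.6), against 9.64% over all autosomes. RAD21 WT peaks of the X had a median fold enrichment of 8.50 against 10.0, while X members had 6.69 against 6.09, and the X had 17.9% of its peaks in the weakest strength group against 20%. Within that group members were 38.6% on the X and 26.0% on autosomes. As these shares use the lists of the rule, they describe the members only. In the lists not used, 44.7% (34.1 to 55.9) of X members were called in RAD21 ΔMAZ and 27.6% (18.8 to 38.6) in CTCF ΔMAZ, against 41.4% and 30.5% of autosomal members, with intervals that overlap.

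The largest cluster of members was at ribosomal RNA sequence. In chr17:39843487-39848576, where an rRNA gene and 3 long noncoding genes are annotated, 5 members had fold enrichments of only 1.63 to 2.13 on local backgrounds of 56.2 to 81.0 fragments. All 5 were called in RAD21 ΔMAZ, RAD21 ΔCTCF/ΔMAZ and a MAZ list, 4 in a knockout MAZ list, and 2 in CTCF ΔCTCF. The part of this high background in the calls there was not tested. A total of 11 members had a background above 10 fragments, and leaving out members on the knockout MAZ lists changed the members' share called in RAD21 ΔCTCF/ΔMAZ from 1.70% to 1.45%.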

How the data were processed

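The authors cross-linked cells, sonicated chromatin, added Drosophila chromatin as a spike-in, aligned reads to mm10 by Bowtie 2, filtered them for quality and PCR duplicates, and ran MACS in its narrow mode. Each list was deposited under 1 sample. The methods name an older MACS release with the default settings of its successor, and whether an input control was used is not given in the sources used here. Spike-in or read-total scaling served the authors' tracks and not the lists. Column 7 of the lists that the authors deposited is a fold enrichment, a ratio of pileup to local background at the summit with 1 added to each. The deposited lists also give −log10 p and −log10 q values, and the lowest −log10 q was 1.30. The score column was not used. Of 20 samples, 12 have a list, and the other 8 were not analysed here.

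Overlap meant at least 1 bp. Members and gene lists were chosen with earlier results of these data known. Pileup and background were solved from fold enrichment and −log10 p, and pileups came out whole within 0.002 for all 20371 RAD21 WT peaks. This and the overlap, gap and motif functions were tested on simulated data. The lists hold no read totals, so depth is known only as an index. Gene positions came from GENCODE vM21 basic, and sequence from GRCm38, which is mm10. Distances to a start used 1 kb for promoters and 50 kb for gene lists. The CTCF matrix was started from core strings at CTCF WT summits with under 50% soft-masked sequence and rebuilt from 16313 sites, with a limit that 1% of such windows beside the summits reach. It was added after the data were seen. Differences of shares have Newcombe intervals. Regions were named by rule: the 5 members of highest fold enrichment called in RAD21 ΔMAZ and in no CTCF list, the 5 highest in CTCF ΔMAZ, the 5 highest in a MAZ list of WT or ΔCTCF, the 3 on each side of both limits, and the nearest member to each pluripotency gene. The chromosome 17 cluster, the X chromosome and the 3 lineage genes were singled out after their values were seen. Sequences were printed for 11 of the 15 members of the first 3 rules, leaving out 1 on chromosome 18 and 2 on an annotated UTR, and 1 further member is not reported here. Python 3.11.15, numpy 2.4.6, pandas 2.3.3, scipy 1.17.1, pysam 0.24.0 and bedtools 2.31.1 were used.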

Additional observations from a re-analysis of the deposited data

How the results depend on the processing

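No paired analysis was possible because no antibody and condition had more than 1 list, so no replicate could be left out either. Of 66 values under other settings, 34 stayed within the interval of the main value (or within 1.5 times a count) and 32 moved, with the cause not tested where the setting itself does not show it. With a reciprocal overlap of 50% for membership there were 2791 members, and the median fold enrichment was 5.91, the share in RAD21 ΔMAZ 47.3%, in RAD21 ΔCTCF/ΔMAZ 7.24%, in CTCF ΔMAZ 33.3% and in a MAZ list 6.99%, the median gap to CTCF WT 19635 bp, the share with a core string 23.3%, with a matrix site 46.4% and at promoters 15.0%. With members of a −log10 q of at least 5, the corresponding values were 6.52 for fold enrichment, 234 bp for width, 48.2% for RAD21 ΔMAZ, 34.8% for CTCF ΔMAZ, 1.95% for MAZ, 28.3% for the core string, 59.1% for the matrix and 9.46% for promoters. When calls needed a reciprocal overlap of 50%, RAD21 ΔCTCF/ΔMAZ gave 1.15%, CTCF ΔMAZ 28.1% and MAZ 1.75%. When a gap of up to 500 bp counted as a call, RAD21 ΔCTCF/ΔMAZ gave 2.60% and MAZ 5.29%. When the other lists kept only peaks with −log10 q of 5 or more, RAD21 ΔMAZ gave 37.4%, RAD21 ΔCTCF/ΔMAZ 1.15%, CTCF ΔMAZ 21.0% and MAZ 2.65%. In windows of 100 bp to each side the core string was found in 32.8% of members and the matrix in 69.7%. The matrix gave 52.7% in place of the core string, and 30% when it was trained with repeats included. All matrix settings were chosen after seeing the data. Within 2.5 kb of a start, 19.6% of members were at promoters. Within 20 kb, 5 pluripotency genes (14.7%) had a member, against 5.18% of all protein-coding genes. Members weaker than the limit of a second library cannot be told from absent ones, since pileups at members had a median of 14 fragments.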
